A study of Mus musculus with 2 samples.

Results

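The gamma-only cells described here are islet cells in which Ppy, the gene of pancreatic polypeptide, made up 1% or more of the cell's unique molecular identifiers (UMIs, each standing for 1 captured mRNA molecule), while insulin (Ins1 and Ins2 added), Gcg (glucagon) and Sst (somatostatin) each stayed under 1%. They numbered 122 of 1483 cells, 54 of 735 in library 1 and 68 of 748 in library 2. Their share was 7.35% in library 1 and 9.09% in library 2 (mean 8.22% ± 1.23, SD, n = 2 libraries), with exact 95% binomial intervals of 5.57% to 9.48% and 7.13% to 11.4% that overlap and cover counting error only. The series holds 1 group, control pancreatic islet cells of 8-week-old male C57BL/6J mice. Islets were freed with collagenase, picked by hand and dissociated with trypsin, and the cells were captured by RevGel-seq, in which each cell is tied to a barcoded bead and fixed in a hydrogel before lysis. Per the study's methods, both libraries are technical replicates of 10000 input cells from 1 islet preparation. Every p-value here therefore measures the spread between preparations of the same islets, not between mice. With no treated group, the comparisons are between cell types, and the gamma-only cells were set beside the 356 alpha-only, 372 beta-only and 58 delta-only cells, in which Gcg, insulin or Sst was the only hormone at the same threshold.

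Gamma cells, also called PP cells, are the islet endocrine cells that secrete pancreatic polypeptide, a peptide of the neuropeptide Y family that is released after meals under vagal drive and lowers appetite and exocrine pancreatic secretion. They are rare in most of the mouse pancreas and concentrate in the part of the head that forms from the ventral bud. Peptide YY (Pyy), a relative of pancreatic polypeptide best known from gut endocrine cells, is also made in the islet.

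Ppy (ENSMUSG00000017316) lies on the minus strand of chromosome 11 at 102099930 to 102101319 (GRCm38), and Pyy (ENSMUSG00000017311) lies upstream of it on the same strand at 102106676 to 102107832. Their start sites are 6513 bases apart, so the gene that chose the cells and the most abundant of the genes given as their markers are neighbours. The 100 bases before each start are shown, from RefSeq on GRCm38.p6, because these promoters belong to the 2 family members that the cells express. Capitals mark the letters TATAAA, searched on the gene's strand.
Ppy, chr11:102101320-102101419, minus strand: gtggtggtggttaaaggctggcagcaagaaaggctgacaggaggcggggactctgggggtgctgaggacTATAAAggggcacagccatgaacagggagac
Pyy, chr11:102107833-102107932, minus strand: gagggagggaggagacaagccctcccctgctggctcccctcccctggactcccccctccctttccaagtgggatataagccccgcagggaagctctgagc
The Ppy window holds TATAAA beginning 31 bases before the start and the Pyy window does not hold it. Of 27025 promoter windows of the same length, 1116 (4.13%) hold these letters. A match is a description of the letters only.

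The hormone genes chose the cells, so their values are given without a test. Ppy took a median of 36.3% of a gamma-only cell's UMIs in library 1 (range 3.25% to 51.7%) and 36.5% in library 2 (range 2.03% to 45.2%). Ppy reached 10% in 119 of the 122 cells, 20% in 111 and 30% in 92. Few cells lay near the threshold. The lowest members were at 2.03%, 3.25% and 3.56%, the next at 10.7%, 10.9% and 11.7%, and the highest Ppy shares among cells with no hormone at the threshold were 0.563%, 0.373% and 0.372%. The highest insulin share of a gamma-only cell was 0.575%, the highest Gcg share 0.968% and the highest Sst share 0.998%. On the other side of the same limits, the lowest insulin share of a cell with insulin and Ppy was 2.08%, the lowest Gcg share of a cell with Gcg and Ppy 1.19%, and the lowest Sst share of a cell with Sst and Ppy 1.02%. Ppy at 10% or more was not restricted to gamma-only cells. It occurred in 179 cells, of which 44 also passed for Gcg, 12 for Sst, 3 for insulin and 1 for more than 1 of them. The median Ppy share was 0.112% in alpha-only, 0.0676% in beta-only, 0.194% in delta-only cells and 0.0662% in the cells with no hormone.

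Gamma-only cells were the deepest of the groups compared, with a median of 29746 UMIs per cell against 18187 in alpha-only, 18734.5 in beta-only, 13259.5 in delta-only cells and 14085 in cells with no hormone. They held a mean of 5798 ± 111 genes per cell (SD over 2 library medians). After each cell was thinned to 4000 UMIs outside the hormone genes, the medians were 2270.0 and 2289.5 genes in gamma-only cells (mean 2280 ± 13.8), against means of 2243 ± 2.83 in alpha-only, 2205 ± 11.7 in beta-only and 2324 ± 7.07 in delta-only cells. At this depth gamma-only cells lay above alpha-only and beta-only and below delta-only cells by more than the spread between libraries, but 2 libraries a side cannot give an exact two-sided p below 1 in 3. The order against alpha-only cells depended on the thinning. At 2000 UMIs the means were 1347 ± 18.4 and 1331 ± 3.54, within the gamma-only spread, and with the hormone genes kept before thinning gamma-only cells lay below alpha-only cells (1645 ± 9.55 against 1833 ± 17.7). Across the whole series the libraries held 15931154 and 17440292 UMIs, no barcode was in both, and the doublet caller marked 8 cells in each. None of these was a gamma-only cell. Markers of blood vessel, blood, stromal and duct cells together took 0.2% or more of the UMIs in 4 gamma-only cells, 3 of them through leukocyte genes (0.558%, 0.684% and 0.276%) and 1 through mesenchymal genes (0.219%). Acinar and Schwann cell markers were not in this sum, which defines the cells with markers of other types removed below.

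For the tests, UMIs of each cell type were summed per library, and 13977 genes entered an edgeR quasi-likelihood fit over 8 sums, with the 5 hormone genes left out. Levels are in counts per 1000000 UMIs outside the hormone genes (CPM). Paired values are library 1 and then library 2. A log2 fold change is gamma-only minus the other cell type, with its standard error, and a gene was called at an adjusted p under 0.05. This standard error was derived as the absolute log2 fold change over the square root of the F statistic of its test. Against alpha-only cells, 1238 genes were higher (8.86% of those tested) and 1164 lower (8.33%). Against beta-only cells, 1996 were higher (14.3%) and 2117 lower (15.1%), and against delta-only cells 920 were higher (6.58%) and 958 lower (6.85%). The contrasts share the gamma-only sums and so are not independent of each other. In all 3 of them 220 genes were higher (1.57%) and 121 lower (0.866%), of which 64 and 64 differed over 2-fold each time. These counts were 115 and 75 with DESeq2 and 60 and 35 with 23 cells in every sum. The median log2 fold change over all genes was -0.0025 against alpha-only, -0.0052 against beta-only and 0.03 against delta-only cells.

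The label of the cells was checked against marker lists. The sums leave out the hormone genes, which chose the cells. Alpha cell markers then took 0.300% and 0.273% of gamma-only UMIs outside the hormone genes, against 4.76% and 4.91% in alpha-only cells, and Loxl4 was at 0 in both. Of 8 tested alpha markers 6 were lower than in alpha-only cells and none higher. Ttr, the transthyretin gene that alpha cells express strongly, was at 2002 and 1713 CPM in gamma-only and 43701 and 45273 in alpha-only cells (log2 fold change -4.60 ± 0.11, adjusted p = 8.09e-22). Gc, the vitamin D binding protein, is a marker that the cells shared, at 480.4 and 446 against 387 and 391 CPM (0.24 ± 0.10, not called). Beta markers took 0.476% and 0.211%, against 5.67% and 5.80% in beta-only cells, and all 10 tested were lower than there. Most of that gamma-only sum was Iapp, at 4190 and 1586 CPM, with 85.7% and 77.6% of its UMIs in 7 cells. Delta markers took 0.0598% and 0.0603%, against 0.724% and 0.721% in delta-only cells, with Pou3f1 and Lepr at 0. Of 7 tested delta markers 6 were lower than in delta-only cells, among them Rbp4, the retinol binding protein, at 345 and 345 against 6355 and 6041 CPM (-4.07 ± 0.12). Against the types they do not mark, 4 alpha markers were higher and 2 lower than in beta-only and 5 and 1 than in delta-only cells. For beta markers these counts were 4 and 2 against alpha-only and 2 and 2 against delta-only cells, and for delta markers 2 and 1 against alpha-only and 2 and 1 against beta-only cells. Of the 4 beta markers above alpha-only cells, Iapp and Ucn3 turned to -0.18 and -0.97 without the 7 cells with most Iapp, and Ucn3 was not called with DESeq2.

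Markers of cells outside the endocrine islet were at or near 0. In gamma-only cells endothelial markers took 0.00217% and 0.00257% of UMIs, mesenchymal markers 0.00445% and 0.00427% (Pdgfrb, Col1a1, Col3a1 and Cspg4 at 0), ductal markers 0.0224% and 0.0204% (Cftr at 0), acinar markers 0.00172% and 0.00159% (Cpa1 and Try5 at 0) and Schwann cell markers 0.00306% and 0.00253% (Sox10, Cdh19 and S100b at 0). Leukocyte markers took 0.00723% and 0.0225% (Cd3e at 0), against 0.00454% and 0.00451% in alpha-only and 0.0102% and 0.0155% in beta-only cells. Of 7 tested leukocyte genes, 4 (C1qb, Cd74, Cd79b and Ptprc) were higher than in alpha-only cells, 2 were lower than in beta-only cells and 0 were called against delta-only cells, where edgeR gave 2 higher and 1 lower at an unadjusted p under 0.05 and DESeq2 called 0. The calls of C1qb and Cd79b were lost with DESeq2 and that of Cd74 without the cells that carry markers of other types, and Cd79b turned to -0.99 without library 2. Cd74, which carries antigen-presenting molecules, was at 61.9 and 226 CPM in gamma-only and 2021 and 1988 in cells with no hormone. Of 7 tested endothelial genes, 4, 2 and 5 were lower than in alpha-only, beta-only and delta-only cells and none was higher, but these genes rest on few UMIs. Kdr, Esm1 and Emcn turned direction under other cell filters or without library 1. Without cells that carry markers of other types, Flt1 and Plvap, which were lower in all 3 contrasts, lost every call (Plvap 0.0085 against alpha-only and Flt1 -0.03 against beta-only cells), and Flt1 was 0.45 against beta-only cells without library 1. DESeq2 called 0, 0 and 1 of the 7. Among mesenchymal genes 3 were tested, with 1 lower against each type and Col1a2 higher than in beta-only and delta-only cells. The 3 tested ductal genes held 1 higher against alpha-only and 1 higher and 1 lower against delta-only cells, the 2 acinar genes 1 higher and 1 lower against alpha-only, 1 higher against beta-only and 2 lower against delta-only cells, and the 2 Schwann cell genes 1 lower against alpha-only cells.

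The genes given as markers beside Ppy were proposed with results of these data known. All 4 were called higher in gamma-only cells in every contrast. Pyy stood at 53889 and 41295 CPM in gamma-only cells, 12679 and 13017 in delta-only, 6282 and 5981 in alpha-only and 659 and 546 in beta-only cells. No library of another type reached the gamma-only levels, and the log2 fold change was 2.94 ± 0.12 against alpha-only (adjusted p = 5.28e-17), 6.25 ± 0.14 against beta-only and 1.99 ± 0.11 against delta-only cells. Every gamma-only cell held Pyy UMIs, at 2203 to 147583 CPM. Its level went up with the Ppy share within each library (Spearman rho 0.406 over 54 cells and 0.406 over 68 cells, Pearson r of log2 Pyy 0.45 and 0.31), while the Ppy share and UMIs per cell gave rho of 0.186 and 0.0902. These are descriptions over cells that share a library. Tspan8, a tetraspanin of the cell surface, was at 748 and 702 CPM against 272 and 305 in delta-only, 60.5 and 53.1 in beta-only and 19.0 and 16.6 in alpha-only cells (1.43 ± 0.13, 3.61 ± 0.12 and 5.33 ± 0.14 on the log2 scale). It too was detected in all 122 cells, and in 19.7% of cells with no hormone, at the median depths given above. Most delta-only cells also held it (82.9% and 87.0%), as did 36.3% and 28.4% of beta-only and 15.9% and 15.5% of alpha-only cells. Folr1, a folate receptor held on the membrane by a lipid anchor, was at 384 and 313 CPM against 259 and 174 in delta-only cells, the smallest difference of the set (log2 fold change 0.73 ± 0.16, adjusted p = 0.00237). Cntnap5b, a contactin-associated protein of the neurexin family, was at 139 and 152 CPM against 28.6 and 53.6 in delta-only, 6.09 and 14.2 in alpha-only and 0.738 and 0.842 in beta-only cells. It was found in 76.2% of gamma-only cells and in 0.546% of cells with no hormone, and other genes overlap it on both strands.

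In the other cells with Ppy these genes were below the gamma-only values. Cells with Gcg and Ppy were at 28943 and 24341 CPM of Pyy, 134 and 156 of Tspan8 and 39.4 and 31.3 of Cntnap5b. Cells with Sst and Ppy were at 15245 and 17744, 353 and 394 and 22.3 and 43.0 CPM of the same genes. These groups differ from gamma-only cells by the gate itself and were not tested against them.

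Of the genes higher in gamma-only cells than in all 3 other types, ranked by the smallest of their 3 fold changes, the first 20 included a few that were at or close to 0 in some of the other types. The homeobox factor Nkx6-3, known from stomach endocrine and glandular development, was at 42.1 and 43.4 CPM in gamma-only and 4.57 and 4.96 CPM in alpha-only cells (log2 fold change 3.13 ± 0.38, adjusted p = 8.77e-07). It had no UMI in beta-only or delta-only cells, which made it at least 72.7-fold and at least 10.8-fold higher in gamma-only cells with a floor of 3 UMIs over both libraries. Its UMIs were in 58 of 122 gamma-only cells and in 1.64% of cells with no hormone. Rprm, a cell cycle arrest gene induced by p53, was at 20.6 and 24.04 CPM against 0.369 and 0 in beta-only cells. Vsig1, an immunoglobulin-domain protein of stomach epithelium, was at 18.9 and 22.3 CPM against 0.762 and 0 in alpha-only and 0 in delta-only cells (ratio of UMIs 57.0, 95% counting interval 15.1 to 481, and at least 5.25-fold higher). Both libraries gave close values for each of these genes in gamma-only cells, and every library of the other 3 types was far below them.

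Several of the 20 are receptors, adhesion or surface proteins, and others are enzymes or signalling proteins. St8sia6, a sialyltransferase, was at 59.3 and 59.2 CPM in gamma-only cells and at most 3.19 in any library of the other 3 types (4.82 ± 0.47, 5.31 ± 0.50 and ratio of UMIs 44.6, 95% counting interval 7.90 to 1773 against delta-only cells), yet at 57.8 and 43.5 CPM in cells with no hormone. Mc4r, the melanocortin receptor of appetite control, was at 19.8 and 40.5 CPM in gamma-only, 6.48 and 6.02 in alpha-only, 2.20 and 3.35 in delta-only cells and 0 in beta-only cells (log2 fold change 2.27 ± 0.42, adjusted p = 2.38e-04 against alpha-only cells, at least 54.3-fold higher than beta-only cells). Only 26 gamma-only cells held Mc4r UMIs, 9 in library 1 and 17 in library 2. Colgalt2, a collagen galactosyltransferase, was at 61.9 and 67.4 CPM against 18.3 and 13.5 in alpha-only cells, and Cd9, a tetraspanin like Tspan8, at 66.2 and 59.2 against 14.9 and 19.1. Ptchd1, a patched-domain membrane protein, was at 22.3 and 29.9 CPM and had no UMI in beta-only cells (at least 45.5-fold higher). Flrt3, an adhesion protein, was at 20.6 and 21.1 CPM, Chn2, a Rac GTPase-activating protein, at 21.5 and 16.4 CPM, and Lrrk1, a leucine-rich repeat kinase, at 37.8 and 29.3 CPM, each above every library of the other 3 types. Lrrk1 overlaps another gene on its own strand.

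The remaining named genes were secreted proteins and genes known from stress or secretory demand. Serpina7, thyroxine-binding globulin, was at 38.7 and 48.7 CPM in gamma-only, 8.76 and 11.7 in alpha-only, 17.0 and 4.21 in beta-only and 2.20 and 13.4 in delta-only cells, and had no UMI in cells with no hormone. Spp1, osteopontin, was at 281 and 241 CPM against 57.1 and 30.2 in delta-only and 4.80 and 2.53 in beta-only cells (2.59 ± 0.24 and 6.04 ± 0.23), but reached 1169 and 201 CPM in cells with no hormone. Ccn1, a matricellular protein, was at 232 and 266 CPM against 32.4 and 30.8 in alpha-only cells, with 804 and 632 in cells with no hormone. Hspb8, a small heat shock protein, was at 124 and 125 CPM in gamma-only cells and no higher than 22.0 in any library of the other 3 types (2.81 ± 0.23, 3.53 ± 0.25 and 2.74 ± 0.36). Klf2, a Krüppel-like factor that responds fast to stimuli, was at 103 and 244 CPM, Kdelr3, a receptor that returns proteins to the ER, at 41.3 and 67.4, and Creb3l3, a membrane-bound factor activated by cleavage, at 23.2 and 14.1. Of the 20 genes, Klf2 and Mc4r were spread most between the libraries. In cells with no hormone Ccn1, Klf2 (277 and 330.3 CPM), Lrrk1 (39.6 and 45.9 CPM) and Creb3l3 (70.4 and 31.0 CPM) lay above the gamma-only level in both libraries, and Spp1 and Cd9 (62.2 and 228 CPM) in 1 of them. The part of RNA from those cells in the differences was not tested. With DESeq2, Klf2 was no longer called against alpha-only and delta-only cells, Creb3l3 against alpha-only cells, nor Flrt3, Ptchd1 and Rprm against delta-only cells.

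**Figure D1:**
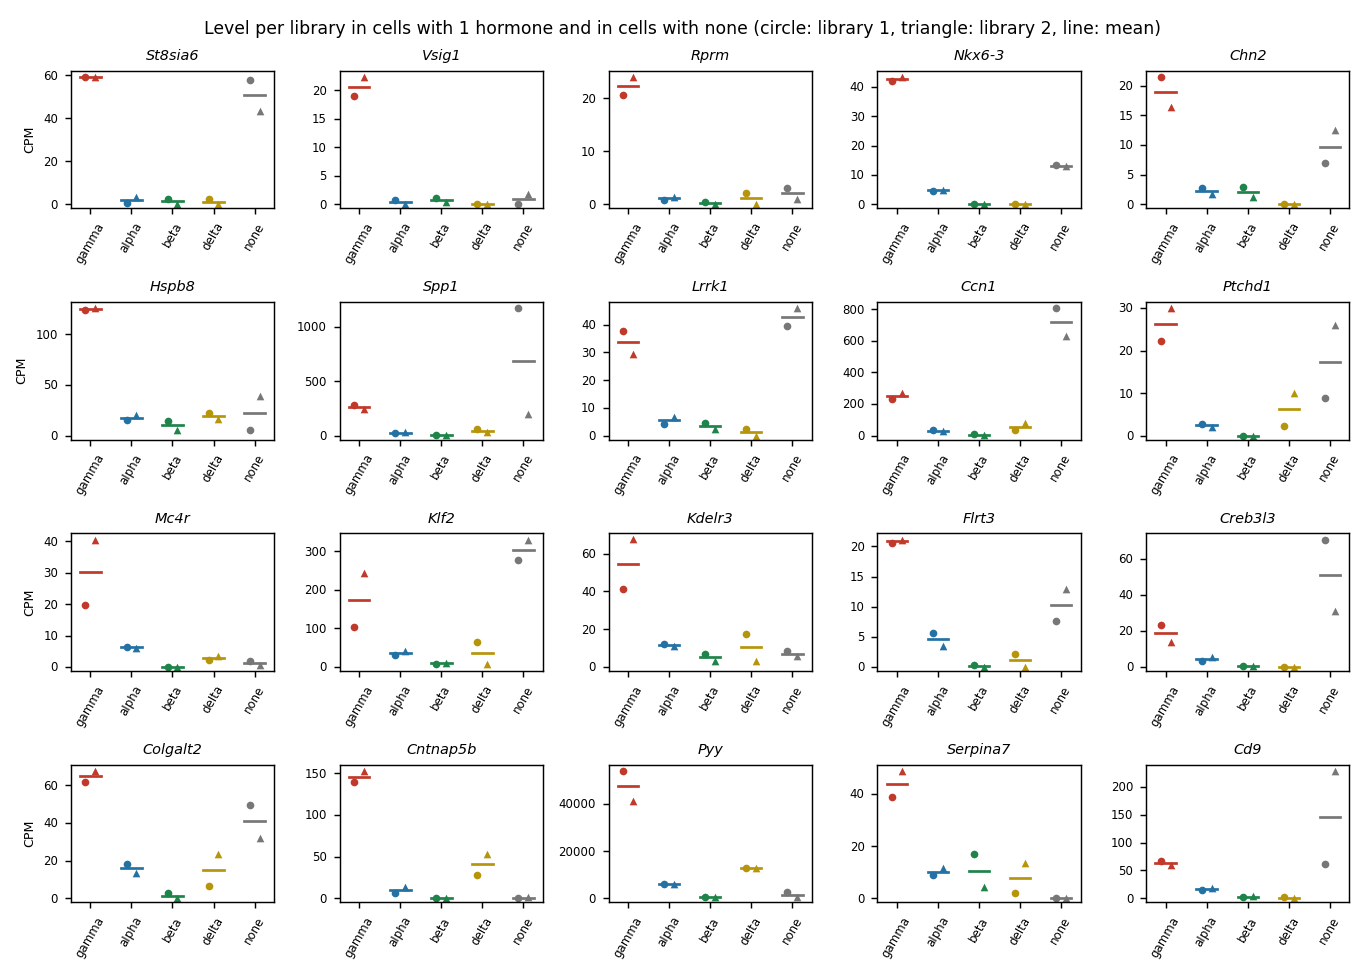
Level in CPM (linear axes from 0, a scale for each gene) of the 20 genes named as higher in all 3 contrasts, in gamma-only, alpha-only, beta-only and delta-only cells and in cells with no hormone at the threshold (none). Circles are library 1, triangles library 2 and lines their mean. Both gamma-only libraries lie above every library of the other 3 hormone types, while cells with no hormone reach or pass them for genes such as Spp1, Ccn1 and Klf2.

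Genes lower in gamma-only cells than in all 3 other types were led by Sim1, a basic helix-loop-helix factor known from the hypothalamus. It was at 2.58 and 0.586 CPM in gamma-only, 85.7 and 75.4 in alpha-only, 17.0 and 12.2 in beta-only and 180.2 and 194 in delta-only cells (-5.79 ± 0.38, -3.39 ± 0.53 and -6.89 ± 0.39). Other named genes act at the membrane or in exocytosis. Baiap3, a Munc13-related protein of dense-core granule traffic, was at 14.6 and 12.3 CPM against 62.7 and 64.9 in beta-only cells, where it was lowest of the other types (log2 fold change -2.32 ± 0.22, adjusted p = 2.17e-09). Kcnb2, a delayed rectifier potassium channel, was at 3.44 and 2.35 CPM against 13.3 and 17.7 in alpha-only cells. Scnn1b, a sodium channel subunit, was at 12.9 and 7.62 CPM against 42.7 and 50.3, and Syndig1l, a synapse-related membrane protein, at 3.44 and 2.35 against 23.2 and 26.2 in the same cells. Lrp8, a lipoprotein receptor, was at 5.16 and 5.86 CPM and no other library of the 3 types was under 25.7. Col27a1, a fibrillar collagen, was at 1.72 and 2.35 CPM against 8.12 and 9.26 in beta-only, 87.9 and 127 in delta-only and 132 and 132 in alpha-only cells. Cdk14 (15.5 and 8.21 CPM), Rnase4 (35.2 and 17.6 CPM, which shares its strand with Ang) and Mrln (47.3 and 38.7 CPM) complete the named set, with Mrln, a small peptide that regulates a calcium pump, least reduced at -1.63 ± 0.18 against alpha-only cells. In each of these genes both gamma-only libraries lay below every library of the other types.

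Against alpha-only cells, the largest increases were in genes that alpha cells barely expressed. Hpgd, which degrades prostaglandins, was at 19.8 and 23.5 CPM against 0.381 and 0 (ratio of UMIs 119.7, 95% counting interval 20.7 to 4800.1). Chrm3, the muscarinic receptor through which the vagus acts on islet cells, was at 40.4 and 49.8 CPM against 1.52 and 0.708 (log2 fold change 5.27 ± 0.37, adjusted p = 1.85e-11). Ntm, an adhesion protein of neurons, was at 90.2 and 80.3 CPM against 1.52 and 3.54 (4.996 ± 0.36). Limch1, an actomyosin regulator, was at 171 and 248 CPM against 1.14 and 7.79 (log2 fold change 5.50 ± 0.28, adjusted p = 2.62e-14), and it split the gamma-only cells, with UMIs in 28 of 54 and 44 of 68. Limch1 split beta-only cells likewise, with UMIs in 88 of 182 and 88 of 190. It was found in 1 of 65 and 2 of 86 cells with Gcg and Ppy and in 10 of 77 and 7 of 71 with Sst and Ppy. In delta-only cells it was found in 4 of 35 and 2 of 23. Genes with no UMI in any gamma-only cell included Hhatl, at 82.3 and 66.9 CPM in alpha-only cells (at least 71.1-fold lower), Egflam, an extracellular matrix protein, at 60.6 and 69.4 (at least 62.3-fold lower), and Adcy1, an adenylyl cyclase, at 20.9 and 17.0 (at least 18.1-fold lower). Edil3 and Pgm5 were each at least 9.83-fold lower, as was Gm38263 by at least 13.3-fold, a gene model inside Dpp10 on the same strand whose reads cannot be told apart from that gene's here.

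Against beta-only cells, Nkx6-3, Mc4r and Ptchd1 were among the largest increases. Cacna2d3, a calcium channel subunit, and Rmst, a long non-coding RNA of neurons, had no UMI in beta-only cells and were at least 43.7-fold and at least 26.0-fold higher. In the other direction, Mafa, the factor that drives insulin gene expression in mature beta cells, was at 0.859 and 1.17 CPM against 1162 and 1216 (ratio of UMIs 1136, 95% counting interval 388 to 5508, beta-only over gamma-only). Cox6a2, a cytochrome oxidase subunit, Msln, mesothelin, and Gad1, which makes GABA, had no UMI in gamma-only cells and were at least 142-fold, at least 101-fold and at least 61.9-fold lower. Tmem215 was at 0.859 and 0 CPM against 272 and 293, and Gm49542, which overlaps Gm6999 on its strand, was at least 44.4-fold lower.

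The largest differences from delta-only cells were in genes of several kinds, among them genes of vesicle traffic. Sytl2, a synaptotagmin-like protein of granule docking, was at 87.7 and 131 CPM and Sv2b, a synaptic vesicle protein, at 53.3 and 52.2 CPM, with no UMI in delta-only cells (at least 28.4-fold and at least 13.2-fold higher). Galnt13 (at least 22.0-fold), Adh1 (at least 14.2-fold) and Col1a2 (at least 12.4-fold) were likewise higher, with no UMI in the 58 delta-only cells. Ptprz1, a receptor phosphatase, was at 0 and 3.52 CPM against 204 and 268 (log2 fold change -6.68 ± 0.51, adjusted p = 7.24e-11), and Ly6h, which binds nicotinic receptors, at 3.44 and 0 against 149 and 198 (-6.76 ± 0.59). P2ry1, an ADP receptor, was at 0.859 and 0 CPM against 81.3 and 114 (ratio of UMIs 270.4, 95% counting interval 47.0 to 10828, delta-only over gamma-only). Clmp, an adhesion molecule, had no gamma-only UMI (at least 59.7-fold lower).

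Islet transcription factors were called in both directions in every contrast. For this and the following lists, the shares over all tested genes were 8.86% higher and 8.33% lower against alpha-only cells. They were 14.3% and 15.1% against beta-only and 6.58% and 6.85% against delta-only cells. Of 33 tested factors, 8 were higher and 11 lower than in alpha-only cells, 9 and 9 than in beta-only cells, and 8 and 9 than in delta-only cells, with medians of -0.01, 0.01 and 0.06. Irx1 and Irx2, factors of alpha cells, were lower than in alpha-only cells. Irx2 was called higher than in beta-only and delta-only cells (ratio of UMIs 12.5, 95% counting interval 3.36 to 104 against delta-only cells). Irx1 was at 1.72 and 4.10 CPM against 319 and 290.1 in alpha-only cells (-6.59 ± 0.27) and Irx2 at 25.8 and 38.1 against 286 and 301 (-3.17 ± 0.17). Nkx6-1, a factor of beta cell identity, was intermediate at 386 and 418 CPM, above alpha-only (83.4 and 65.2) and delta-only cells (28.6 and 10.1) and below beta-only cells (1384 and 1511), with 2.43 ± 0.13, 4.34 ± 0.26 and -1.90 ± 0.11 on the log2 scale. Pdx1, which beta and delta cells use, was at 37.8 and 30.5 CPM, higher than in alpha-only (6.48 and 1.42, 3.08 ± 0.34) and lower than in delta-only (154 and 154, -2.10 ± 0.25) and beta-only cells (337 and 336, -3.38 ± 0.18).

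Beside Nkx6-3, the ETS factor Etv1 was the only factor on the list that was higher in all 3 contrasts. It was at 762 and 730.0 CPM in gamma-only, 590.0 and 564 in alpha-only, 492 and 469 in delta-only and 32.8 and 30.7 in beta-only cells (0.36 ± 0.09, 0.72 ± 0.11 and 4.49 ± 0.12). Rfx6, needed for islet cell differentiation, was the only one lower in all 3, at 56.7 and 50.4 CPM against 127 and 136 in beta-only, 164 and 158 in alpha-only and 196 and 228 in delta-only cells. Hhex, the delta cell factor, was at 7.73 and 5.86 CPM against 316 and 479 in delta-only cells (-5.77 ± 0.30). Fev, a serotonergic factor seen in islet progenitors, was at 74.8 and 46.3 CPM, far above beta-only cells (3.69 and 2.11, 4.24 ± 0.35), while the differences from alpha-only (62.1 and 54.9) and delta-only cells (48.3 and 80.5) were not called. Meis2, a homeobox factor, was at 456 and 563 CPM, higher than in alpha-only and beta-only cells (0.48 ± 0.11 and 0.62 ± 0.11) and lower than in delta-only cells (-0.52 ± 0.13).

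**Figure D2:**
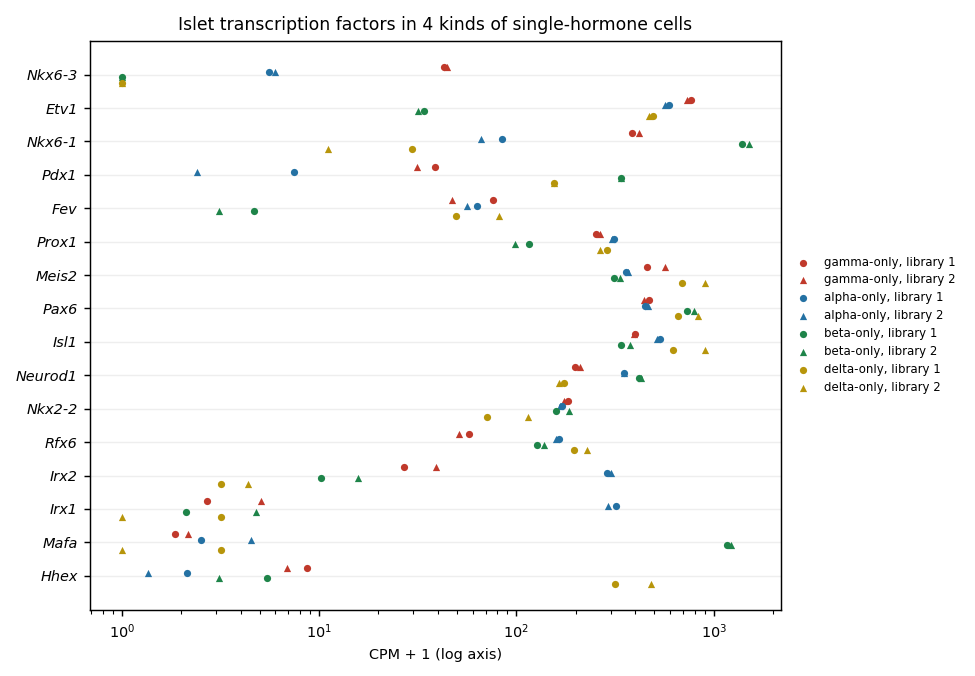
Levels (CPM + 1, log axis) of 16 islet transcription factors, 1 per line, in gamma-only, alpha-only, beta-only and delta-only cells. Circles are library 1 and triangles library 2. Etv1 of gamma-only cells lies near alpha-only cells, Nkx6-1 lies between beta-only and the other types, and Irx1, Mafa and Hhex lie low.

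Within the machinery of hormone processing and granules, 25 genes were tested, of which 5 were higher and 8 lower than in alpha-only cells, 6 and 11 than in beta-only cells, and 8 and 4 than in delta-only cells (medians 0.04, -0.17 and 0.04). Of the prohormone convertases, Pcsk2 was abundant at 6870.2 and 6677 CPM, lower than in alpha-only (10326 and 10301, -0.62 ± 0.09) and higher than in beta-only cells (4885 and 4983, 0.40 ± 0.09). Pcsk1 was at 55.00 and 67.4 CPM, above the 4.19 and 2.48 of alpha-only (4.19 ± 0.27) and below the 575 and 568 of beta-only cells (-3.26 ± 0.13). The zinc transporter Slc30a8, which loads insulin granules with zinc, was low at 55.9 and 64.5 CPM against 1270.3 and 1319 in alpha-only and 1305 and 1282 in beta-only cells (-4.43 ± 0.17 and -4.47 ± 0.17). Scg2, a secretogranin, was at 5121 and 4522 CPM, higher than in alpha-only (1.504 ± 0.09) and lower than in beta-only and delta-only cells (-0.90 ± 0.09 and -0.74 ± 0.09). Cadps, which primes dense-core granules, was at 204 and 198 CPM against 4.39 and 0 in delta-only cells (ratio of UMIs 75.5, 95% counting interval 20.8 to 625). Vgf, a granin-like peptide precursor, was at 0 and 1.17 CPM against 27.0 and 20.9 in alpha-only cells (ratio of UMIs 34.2, 95% counting interval 9.29 to 286, alpha-only over gamma-only). The values of chromogranin A (Chga) and of Iapp are given further on, since a few cells held much of their UMIs.

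Of the other peptides 6 of 22 were tested, 3 higher and 1 lower than in alpha-only, 2 and 4 than in beta-only, and 2 and 2 than in delta-only cells (medians 2.15, -5.06 and -0.16). Edn3, endothelin 3, was at 91.1 and 50.4 CPM, lower than in alpha-only (384 and 329, -2.40 ± 0.18) and higher than in beta-only cells (2.95 and 0.421, 5.16 ± 0.41). Npy, the third member of the family, had no UMI in gamma-only cells against 64.6 and 34.1 CPM in beta-only cells (at least 48.2-fold lower). Pdyn, the dynorphin precursor, was at 3.44 and 0 CPM against 118 and 74.1 in beta-only and 134 and 111 in delta-only cells. Of the receptors for this peptide family, Npy1r, Npy2r, Npy4r and Npy5r had no UMI in gamma-only cells and none passed the filter on low counts.

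Hormone and nutrient receptors gave 22 tested genes, 3 higher and 6 lower than in alpha-only cells, 7 and 10 than in beta-only cells, and 8 and 5 than in delta-only cells (medians 0.09, -0.17 and 0.01). Mc4r was the only one called higher each time. Of the incretin receptors, Gipr was at 126 and 117 CPM, close to the 121 and 104 of alpha-only cells (0.10 ± 0.14, not called) and lower than in beta-only cells (378 and 325, -1.59 ± 0.13). Glp1r was at 34.4 and 10.6 CPM, far below the 1472 and 1418 of beta-only cells (log2 fold change -6.20 ± 0.19, adjusted p = 5.28e-20). Vipr1, which binds the vagal peptide VIP, was at 92.0 and 80.3 CPM, higher than in delta-only (4.39 and 10.1, 3.77 ± 0.45) and beta-only cells (0.77 ± 0.18) and lower than in alpha-only cells (-0.51 ± 0.16, a call lost with DESeq2). Galr1, a galanin receptor that inhibits secretion, was at 16.3 and 14.1 CPM, higher than in alpha-only (2.40 ± 0.41) and delta-only cells (at least 3.76-fold, no UMI there) and lower than in beta-only cells (-2.21 ± 0.26). The fatty acid receptor Ffar1 was at 110.0 and 89.1 CPM against 6.59 and 0 in delta-only and 515 and 526 in beta-only cells, and the lipid receptor Gpr119 at 15.5 and 26.4 with no UMI in delta-only cells (at least 5.51-fold higher). Receptors of the posterior pituitary hormones were lower than in alpha-only cells, with Avpr1b at 30.9 and 27.6 against 69.7 and 82.9 CPM and Oxtr at 17.2 and 9.38 against 109 and 128 CPM. The glucagon receptor Gcgr was at 2.58 and 0.586 CPM against 98.2 and 115 in beta-only cells.

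Receptors for autonomic and other transmitters numbered 12 tested, 2 higher and 3 lower than in alpha-only, 3 and 6 than in beta-only, and 3 and 3 than in delta-only cells (medians 0.01, -0.22 and -0.19). Chrm3, described above against alpha-only cells, was also higher than in delta-only (13.2 and 20.1 CPM, 1.61 ± 0.39) and lower than in beta-only cells (79.0 and 80.9 CPM, -0.86 ± 0.19). It was detected in 49.2% of gamma-only cells and in 8.20% of cells with no hormone. Detection was 62.6% and 52.1% in beta-only, 8.57% and 21.7% in delta-only and 2.20% and 1.15% in alpha-only cells. Adra2a, the adrenergic receptor that blocks insulin release, was at 1.72 and 1.76 CPM, lower than in beta-only (181 and 177, -6.68 ± 0.29) and delta-only cells (30.8 and 40.2, -4.16 ± 0.54). Gria2, a glutamate receptor subunit, was abundant at 754 and 804 CPM, lower than in alpha-only (980.0 and 1017, -0.37 ± 0.10) and higher than in beta-only (77.5 and 67.0, 3.37 ± 0.12) and delta-only cells (0.93 ± 0.13).

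Among 29 tested ion channel genes, 10 were higher and 5 lower than in alpha-only cells, 10 and 8 than in beta-only cells, and 5 and 7 than in delta-only cells (medians 0.09, 0.20 and -0.19). Kcnb2 and Cacna1a, a voltage-gated calcium channel, were lower in all 3 contrasts. Cacna1a was at 78.2 and 109 CPM against 146 or more in every other library of the 3 types (-0.67 ± 0.14, -0.87 ± 0.14 and -0.83 ± 0.19). The subunits of the ATP-sensitive potassium channel were both present, with Kcnj11 at 247 and 228 and Abcc8 at 859 and 859.6 CPM, and Kcnj11 was higher than in alpha-only and beta-only cells (0.45 ± 0.11 and 0.55 ± 0.12). Kcnk3, a background potassium channel, was at 241 and 235 CPM, close to alpha-only cells (246 and 261, not called) and higher than in beta-only (8.49 and 8.42, 4.74 ± 0.18) and delta-only cells (2.44 ± 0.22). Scn3a, a sodium channel, was at 247 and 253 CPM against 28.0 and 48.4 in beta-only cells (2.67 ± 0.17). Trpm5, a cation channel of beta cells, was at 1.72 and 1.17 CPM against 269.8 and 294 (-7.64 ± 0.28).

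Of 19 tested genes of glucose uptake and use, 2 were higher and 4 lower than in alpha-only cells, 4 and 9 than in beta-only cells, and 2 and 4 than in delta-only cells (medians 0.18, -0.39 and -0.35). The 2 higher than in alpha-only cells are near the 8.86% over all tested genes. The glucose transporter Slc2a2 was at 3.44 and 0.586 CPM against 653 and 739 in beta-only cells (-8.64 ± 0.27), and G6pc2, an islet glucose-6-phosphatase, at 14.6 and 3.52 against 1896 and 1918. Pfkp, a phosphofructokinase, was lower in all 3 contrasts at 23.2 and 20.5 CPM against 36.9 and 35.1 in alpha-only cells. Pdk1, which restrains entry of pyruvate into the citric acid cycle, was higher in all 3 at 73.1 and 69.2 CPM against 45.7 and 46.7 in alpha-only cells (0.60 ± 0.17). With DESeq2, Pdk1 lost its calls against alpha-only and beta-only cells and Pfkp those against alpha-only and delta-only cells. Of 9 tested monoamine and GABA genes, 1 was higher and 2 lower than in alpha-only, 0 and 5 than in beta-only, and 1 and 1 than in delta-only cells (medians -0.64, -1.39 and 0.22). Ddc, which makes dopamine and serotonin, was at 295 and 219 CPM against 653 and 769 in beta-only and 8.79 and 26.8 in delta-only cells. Th, the first enzyme of dopamine synthesis, had no gamma-only UMI and was at least 30.3-fold lower than in beta-only cells. Of 6 tested cell cycle genes, edgeR called 0 against alpha-only, 3 lower against beta-only and 0 against delta-only cells (medians 0.14, -1.47 and 0.39). At an unadjusted p under 0.05 there were 1, 3 and 0, all lower, and DESeq2 called 0, 2 and 0.

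Genes of protein folding in the ER were split by the cell type compared, with 11 of 22 higher and 2 lower than in alpha-only cells, 2 and 16 than in beta-only cells, and 8 and 1 than in delta-only cells (medians 0.29, -0.66 and 0.10). Xbp1 and Atf4, transcription factors of the unfolded protein response, were higher in all 3. Xbp1 was at 279 and 293 CPM against 169 and 160.4 in alpha-only, 220.0 and 213 in beta-only and 165 and 231 in delta-only cells, and Atf4 at 456 and 429 against 330.2 and 322, 333 and 324 and 191 and 184. Xbp1 was not called against beta-only cells with DESeq2. The chaperone Hspa5 was at 3060.4 and 3369 CPM, between alpha-only (2655 and 2555, 0.29 ± 0.09) and beta-only cells (3819 and 3763, -0.29 ± 0.09). Ero1lb, an oxidase for insulin folding, was at 107 and 67.4 CPM against 2071 and 1792 in beta-only cells.

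Immediate early and heat shock genes moved in 1 direction. All 14 were higher than in beta-only cells, 13 than in delta-only and 11 than in alpha-only cells, none was lower, and the medians were 2.11, 0.95 and 0.59. In all 3 contrasts Fos, Fosb, Jun, Junb, Jund, Egr1, Ier2, Hspa1a, Hspa1b and Hsph1 were higher, although Ier2 and Junb lost their calls against alpha-only cells with DESeq2, which called 8 of the 14 there. Fos, a factor induced within minutes by stimulation, was at 4138 and 3917 CPM in gamma-only, 2604 and 2278 in alpha-only, 1461 and 1689.6 in delta-only and 874 and 691 in beta-only cells (0.71 ± 0.10, 1.46 ± 0.11 and 2.31 ± 0.11). Egr1 was at 3331 and 3390.3 CPM against 2027 and 1896 in alpha-only cells (0.76 ± 0.10), and the heat shock protein gene Hspa1a at 2849.8 and 3503 against 2129.6 and 1971 (0.62 ± 0.10). Summed over the list, the median gamma-only cell held 2.47% of its UMIs outside the hormone genes in library 1 and 2.83% in library 2, with single cells from 0.20% to 4.84%. The medians were 1.79% and 1.68% in alpha-only, 1.30% and 1.12% in delta-only, 0.463% and 0.416% in beta-only cells, and 1.39% and 1.47% in cells with no hormone. These genes also respond to enzymatic dissociation. The mitochondrial share had medians of 0.770% and 0.756% of UMIs in gamma-only, 0.574% and 0.582% in alpha-only, 0.509% and 0.390% in delta-only and 0.371% and 0.326% in beta-only cells. It was higher still, at 0.957% and 0.823%, in cells with no hormone, whose share of these genes was below that of gamma-only cells. The part of handling in these differences was not tested.

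**Figure D3:**
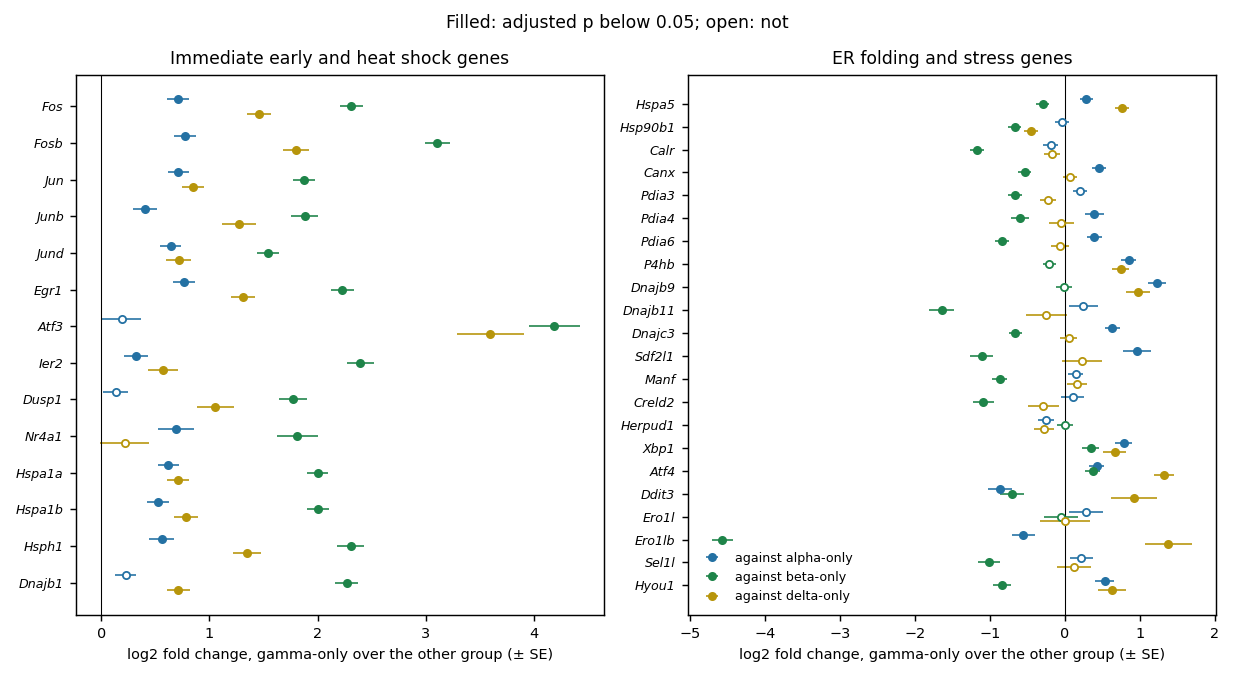
Log2 fold changes of gamma-only over alpha-only, beta-only and delta-only cells for 14 immediate early and heat shock genes (left) and 22 ER folding and stress genes (right). Points are the fitted values, bars their standard error, and filled points have an adjusted p under 0.05. On the left every point lies above 0. On the right the points against beta-only cells lie mostly below 0.

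Gamma-only cells also differed among themselves. Over the 1940 genes at 100 CPM or more in both libraries, the variance between cells beyond counting error, as a squared coefficient of variation, had a median of 0.135 in library 1 and 0.0961 in library 2. It was 20.9 and 37.6 for Apoe, the lipid carrier, where the highest cell of each library was at 8958 and 12853 CPM over a median of 0, and 6.88 and 15.8 for Iapp, the amyloid peptide secreted with insulin. Snhg11, a non-coding RNA, came next at 5.50 and 4.66, with UMIs in 25.9% and 35.3% of cells. Phlda1, Ccn1, Chga, Klf2 and Bag3 followed. Single cells with no hormone reached 36884 and 59365 CPM of Apoe. The 4 gamma-only cells with markers of other types were kept in, and the part of RNA from other cells in this variance was not tested.

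Most Iapp UMIs were in 7 cells at 10000 CPM or more, 5 in library 1 and 2 in library 2, picked after their values were seen and so described without a test. Iapp ran from 24634 to 90487 CPM in them (median 34230.0), against a median of 232 and at most 8774 CPM in the other 115 gamma-only cells. Their Chga median was 71524 CPM against 3800.2, and their Ppy share ran from 2.03% to 14.3% against 13.1% to 51.7%. They included the 3 members with the least Ppy. The 7 were not alike. The delta marker Hhex was found in 2 of them, those with Ppy at 2.03% and 3.25%, at 348 and 121 CPM. The same 2 cells held Rbp4 at 1643 and 1294 CPM, Sst at 0.141% and 0.689% and Chga at only 9857 and 7726 CPM. In the other 115 cells Hhex reached at most 90.5 CPM, Rbp4 1061 CPM and Sst 0.998%. None of the 7 held an Nkx6-3 or Cntnap5b UMI, whereas 58 and 93 of the other 115 did. Their Etv1 median was 33.9 CPM against 791, while Nkx6-1 was at 697 against 371. Glp1r was found in 6 of the 7 and in 13 of the 115. They held Pyy at 10252 to 33703 CPM, no Mafa UMI, and an insulin share of 0.193% to 0.575% (median 0.286% against 0.148%). They carried 85.7% and 77.6% of all gamma-only Iapp UMIs, and 58.3% and 20.8% of those of Chga.

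**Figure D4:**
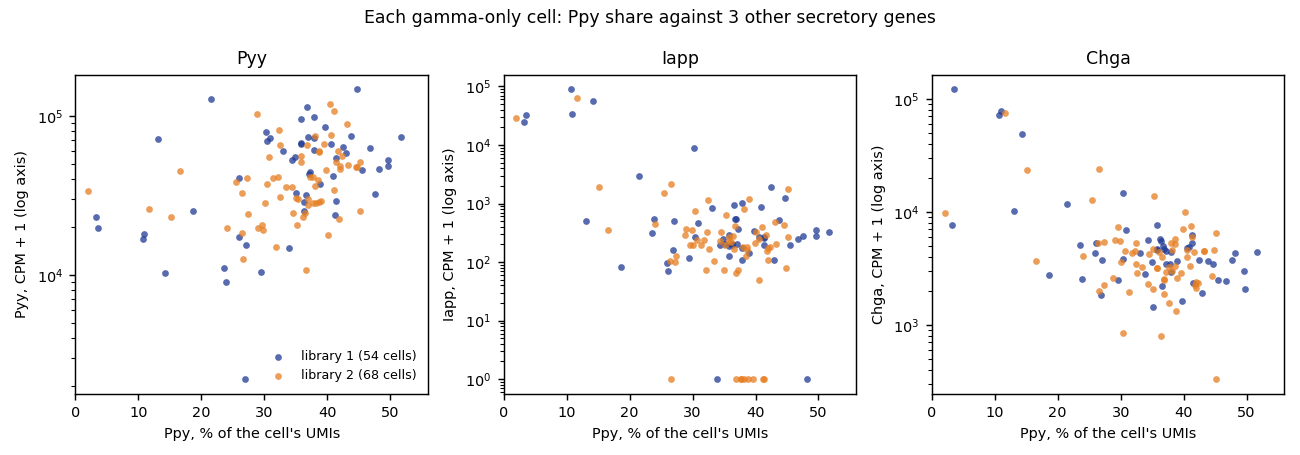
Each point is 1 of the 122 gamma-only cells, with its Ppy share of UMIs (%) on the horizontal axis and the level of Pyy, Iapp or Chga (CPM + 1, log axis) on the vertical axis, coloured by library. The 7 cells at 10000 CPM of Iapp or more lie at or below 14.3% Ppy, and Pyy is present in every cell.

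Results that rest on these cells are given both ways. With all 122 cells Iapp was at 4189.6 and 1586 CPM, called higher than the 633 and 489 of alpha-only cells (2.35 ± 0.23) and lower than in beta-only (48332 and 49627, -4.14 ± 0.24) and delta-only cells (15053 and 15357, -2.30 ± 0.22). Without the 7, it was at 653 and 365 CPM, the difference from alpha-only cells was -0.18 ± 0.15, adjusted p = 0.49 (not called), and those from beta-only and delta-only cells were -6.67 and -4.84. Chga was at 10007 and 5662 CPM with all cells and 4560.4 and 4601 without the 7, and its call against delta-only cells went from 0.55 ± 0.15 to -0.24 ± 0.09, adjusted p = 0.0742 (not called). Glp1r against alpha-only cells (7.24 and 5.67 CPM) went from 1.64 ± 0.38, called, to 0.32 ± 0.43, adjusted p = 0.7. Without them 250 genes were higher in all 3 contrasts, 218 of them among the 220, and 153 were lower, with 119 among the 121. Of the list members, Chgb (from 0.37 ± 0.10 to 0.24 ± 0.10, adjusted p = 0.0791), Ucn3 (from 1.95 ± 0.68 to -0.97 ± 0.82, adjusted p = 0.483) and Hhex (from 3.04 ± 0.70 to 2.06 ± 0.88, adjusted p = 0.111) were no longer called against alpha-only cells without the 7, nor was Cacna2d1. Ghsr and Cela1 lost their call against beta-only cells, and Kcnk16 and Cacna2d1 theirs against delta-only cells. Gc then passed against alpha-only cells (0.30 ± 0.10, adjusted p = 0.0433).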

How the data were processed

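RevGel-seq counts of polyadenylated RNA were used from 2 libraries of control mouse islet cells. The authors counted UMIs per gene and cell and deposited whole, unnormalized counts. Their processing notes name GRCm38, UMI-tools and Seurat, and their methods the Cytonaut software. The cells deposited were kept as they stood, since all passed 200 genes and at most 20% mitochondrial UMIs. Levels in CPM are UMIs per 1000000 after removal of the 5 hormone genes (Ppy, Ins1, Ins2, Gcg and Sst), which chose the cells and were not tested.

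Cells were grouped by hormones at 1% or more of UMIs. UMIs of each group were summed per library (gamma-only 1163581 and 1705431, alpha-only 2625397 and 2823605, beta-only 2709457 and 2374584, delta-only 455071 and 298300 outside the hormone genes), since cells are not replicates. The 8 sums entered 1 edgeR 4.0.16 quasi-likelihood fit (R 4.3.3, TMM scaling, 4 residual degrees of freedom) with Benjamini-Hochberg adjustment over 13977 genes. The coefficient of variation between libraries was 8.77%. The script was tested on simulated counts. DESeq2 1.42.0, other scaling, filters and thresholds, equal cell numbers and the library number as a block were alternatives. The library numbers did not pair the sums, with correlations of deviations from -0.0345 to 0.0774. Doublets were called with scanpy 1.11.5.

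Named genes needed 20 UMIs in each library of the higher group, with at most 50% in its 3 richest cells. They are the 20 higher in all 3 contrasts by their smallest fold change, the 10 lower in all 3, the 6 largest changes each way in each contrast, the given markers and called members of the gene lists. Genes without a UMI in 1 group are given as bounds with a floor of 3 UMIs. The cells, marker genes and lists were chosen with earlier results of these data known. The removal of the 3 cells with least Ppy or of the 7 with most Iapp was added after seeing the data. Promoter windows are RefSeq's on GRCm38.p6. All intervals and floors cover counting error only. Gene coordinates come from GENCODE M21, which holds 32971 of 33038 identifiers. Results on some genes are not reported here.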

Additional observations from a re-analysis of the deposited data

How the results depend on the processing

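Of 65 recomputed counts of called genes, 56 were within 1.5 times the reported ones. The removal of called doublets took no cell from the compared groups, so its counts repeat the main fit and could not differ. With DESeq2, 1346 genes were called against alpha-only (723 higher, 623 lower) and 2650 against beta-only cells (1250 and 1400), where edgeR gave 2402 and 4113, and 115 were higher and 75 lower in all 3 contrasts, against 220 and 121. With 23 cells in every sum the calls were 528, 1212 and 865 against alpha-only, beta-only and delta-only cells (1878 for the last with all cells), and 60 and 35 in all 3. Every sum but that of delta-only library 2 then held fewer cells and fewer UMIs, and the part of each was not tested. The replicate block gave 2277, 3966 and 1783 calls, and 208 and 114 in all 3. Among the genes named in a sentence it ended the call of Ghsr against beta-only, Ier2 against alpha-only and Rmst against alpha-only cells. The median genes per cell, 2280 at 4000 UMIs, was 5798 without thinning, 1347 at 2000 UMIs and 1645 with the hormone genes kept. Without library 1 or 2 it was 2270.0 to 2289.5, and the gamma-only share 7.35% to 9.09%. Under other hormone thresholds the share was 7.81% to 8.82%, and without cells carrying markers of other types, which lowers the total, 9.06%. Counts of calls have no value without a library, because no residual degrees of freedom are then left.

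Over 243 named genes and list members, called in 494 contrasts, 6024 of 6330 fold changes recomputed with a test kept their direction and side of the threshold, 288 were no longer called (67 with DESeq2 and 114 with equal cell numbers) and 18 turned direction. The values without called doublets are among the 6024 and repeat the main fit, so they add no support. Without library 1 or 2 there is no test, and 981 of 988 values kept their direction. Without the 7 cells with most Iapp, Iapp against alpha-only cells was -0.18, Chga against delta-only cells -0.24 and Ucn3 against alpha-only cells -0.97. Ucn3 was also -0.31 with Ppy at 10% or more, -0.30 without the 3 cells with least Ppy and from -0.51 to 2.61 without library 1 or 2. Most other turns were in markers of other cell types with few UMIs. Without cells carrying such markers, Kdr was 0.34, Esm1 0.50 and Plvap 0.0085 against alpha-only cells, and Kdr was 1.11 and Esm1 0.94 against delta-only cells. With own hormones at a higher level, the values against delta-only cells were 1.09 for Kdr, 0.92 for Esm1, 5.35 for Emcn and 0.42 for Sparc. Without library 1 or 2, Kdr ran from -4.59 to 0.82, Esm1 from -4.66 to 0.12, Emcn from -2.94 to 1.62 and Sparc from -4.76 to 2.21 against the same cells, Flt1 from -4.00 to 0.45 against beta-only cells and Cd79b from -0.99 to 3.63 against alpha-only cells, the positive values of the first 5 being those without library 1 and the negative value of Cd79b that without library 2. With equal cell numbers, Hhex was -0.17 and Nr4a1 -0.16 against alpha-only cells, and C1qa was 0.18 and Cela1 -0.21 against beta-only cells. The cause of these turns was not tested. Depth limits the genes at 0 most in delta-only cells, whose 58 cells gave the smallest sums.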
